A study of Mus musculus with 8 samples.

Results

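Caveolae are flask-shaped pits of the plasma membrane, and the 6 genes described here encode their coat: the caveolins *Cav1* and *Cav2*, the cavins *Cavin1*, *Cavin2* and *Cavin3*, and the neck ATPase *Ehd2*. They were taken by name from the 56691 gene rows of a cerebellar count table, after its Ensembl identifiers had been matched to symbols, and all 6 were among the 22423 genes that passed the filter on low counts. The list was drawn up with earlier results of the same contrast in view, in which *Cavin1* and *Cavin2* had lower counts without *Atm*, so the genotype values of the 6 genes are given as a description and without a test. All 6 had a lower mean level in *Atm*-KO than in *Atm*-WT cerebellum. The log2 fold change ranged from −0.57 for *Cavin2* to −0.08 for *Cav2*, with a median of −0.27, against a median of −0.018 over all genes tested, of which 53.1% were lower. In *Cavin1* and *Cavin2* every *Atm*-KO library lay below every *Atm*-WT library, whereas in the other 4 genes the genotypes overlapped. Among all genes tested, 5.12% had every mutant below every wild type.

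Bulk RNA was sequenced from the cerebella of 4 *Atm*-WT mice (2M, 7M, 13M and 32M) and 4 *Atm*-KO mice (1M, 7F, 11M and 12M), with a library for each mouse. The labels give the genotypes as ATM +/+ and ATM -/-, and the mice were untreated for this experiment as far as the labels and methods state. The mutants were of the B6;129S4-Atmtm1Bal/J line, in which the allele is carried by the whole animal, the wild types were littermates from crosses of heterozygous parents, and all mice were 6 months old. Mouse 7F is the only animal with the letter F in its label, the other 7 carrying an M, so a difference tied to that letter rests on 1 library.

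Caveolin 1 inserts into the inner leaflet of the membrane and oligomerises, and caveolin 2 joins it in mixed oligomers. Cavin 1 (also called PTRF) is recruited from the cytosol and is needed for the pits to form, cavin 2 (SDPR) and cavin 3 (PRKCDBP) bind to it, and EHD2 forms a ring at the neck that holds the pit at the surface. Caveolae are abundant in endothelial cells, smooth muscle, fibroblasts and adipocytes. In brain endothelium they are held at low density as part of the blood-brain barrier, and neurons have few.

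*Atm* itself was examined first as a check of the genotype labels. Its level in CPM, the count of a gene scaled to a common library size with TMM factors, was 67.6, 80.0, 79.4 and 59.0 in *Atm*-WT mice 2M, 7M, 13M and 32M and 51.1, 44.3, 41.1 and 44.9 in *Atm*-KO mice 1M, 7F, 11M and 12M. Every mutant library was thus below every wild-type library, although transcript remained (edgeR log2 fold change −0.66 with a standard error of 0.10, adjusted p = 0.0775). That p comes from the quasi-likelihood F test of edgeR, adjusted by Benjamini-Hochberg over all 22423 genes, as do the adjusted p-values by edgeR that follow. Where a mouse was left out, the adjustment was over the genes that passed the filter in that fit. Counts were given per gene, so reads from a disrupted transcript cannot be told apart from others. Libraries held 65967130 to 88030300 counts. *Atm*-KO mouse 12M had the lowest total and the most extreme values of the mutants for several cell type markers, with a median log2 level of oligodendrocyte markers −0.63, of microglia markers −0.66 and of granule cell markers 0.29 relative to the *Atm*-WT mean, so coat gene values are given with and without it.

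The coat genes were found on 4 chromosomes, none of them chromosome 9, which carries *Atm*. Coordinates are those of GRCm39. *Cav2* (ENSMUSG00000000058, chr6:17281026-17289877, plus strand) and *Cav1* (ENSMUSG00000007655, chr6:17306140-17341451, plus strand) are neighbours, 16.3 kb apart. *Cavin1* (ENSMUSG00000004044, chr11:100847559-100861713) lies on the minus strand of chromosome 11, and *Cavin2* (ENSMUSG00000045954, chr1:51328266-51345710) on the plus strand of chromosome 1. *Cavin3* (ENSMUSG00000037060, chr7:105128391-105131507) and *Ehd2* (ENSMUSG00000074364, chr7:15680874-15701629) share chromosome 7 and its minus strand but are 89.4 Mb apart. All 6 are protein-coding.

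The 250 bases upstream of the canonical start site are shown for *Cavin1* and *Cavin2*, the pair whose genotypes did not overlap, and for *Cav1*, the core caveolin, for comparison. They span chr11:100861714-100861963 (minus strand) for *Cavin1*, chr1:51328016-51328265 (plus) for *Cavin2* and chr6:17305890-17306139 (plus) for *Cav1*. Each is written 5′ to 3′ on the strand of its gene, and capitals mark the CCAAT box, read as CCAAT or, on the opposite strand, ATTGG.
Cavin1: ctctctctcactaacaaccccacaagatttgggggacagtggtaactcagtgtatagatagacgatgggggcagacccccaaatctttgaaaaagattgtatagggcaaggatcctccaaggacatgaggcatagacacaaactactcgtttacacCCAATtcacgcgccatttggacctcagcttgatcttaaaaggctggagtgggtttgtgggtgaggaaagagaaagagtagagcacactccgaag
Cavin2: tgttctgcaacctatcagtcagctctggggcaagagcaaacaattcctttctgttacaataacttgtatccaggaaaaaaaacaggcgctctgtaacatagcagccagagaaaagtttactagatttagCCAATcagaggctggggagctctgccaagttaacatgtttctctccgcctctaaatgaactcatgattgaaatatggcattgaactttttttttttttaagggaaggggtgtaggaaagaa
Cav1: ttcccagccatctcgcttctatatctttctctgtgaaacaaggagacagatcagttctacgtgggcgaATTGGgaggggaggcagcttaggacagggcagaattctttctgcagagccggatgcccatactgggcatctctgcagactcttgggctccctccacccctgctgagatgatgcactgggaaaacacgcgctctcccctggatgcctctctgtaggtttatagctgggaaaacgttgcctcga

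A CCAAT box was present in these upstream stretches and in that of *Cav2*, which reaches into the annotated span of the gene because another transcript starts earlier, and not in those of *Cavin3* and *Ehd2*, so in 4 of 6, while 36.5% of the 21757 upstream stretches of protein-coding genes of the same length held one. It lay from −94 to −90 in *Cavin1*, from −121 to −117 in *Cavin2* and from −182 to −178 in both *Cav2* and, on the opposite strand, *Cav1*, counted from the start site. The core of the hypoxia response element, ACGTG or GCGTG on either strand, was held by *Cav1*, *Cavin1* and *Ehd2* (3 of 6, against 41.3% of all). In *Cavin1* it ran from −88 to −84, beside the CCAAT box without overlapping it. The GC box GGGCGG, on either strand, was held by *Cav2*, *Cavin3* and *Ehd2* (3 of 6, against 36.3% of all). GC content was 40.4% for *Cavin2* and 47.6% for *Cavin1*, both below the 53.2% median of all upstream stretches, and 62% for *Cav2*. The letters shared by *Cavin1* and *Cavin2* among those searched were thus the CCAAT box, which the caveolins share as well.

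In wild-type cerebellum the coat transcripts were of moderate abundance, and *Cavin1* led them. Its level per length was 6.73 ± 0.517 CPM per kb of exon (SD, n = 4), with a range of 6.16 to 7.40 that did not overlap that of *Cav2*, the next in order (2.99 to 3.95). *Cav2* had a mean of 3.48 ± 0.423 and *Cav1* of 3.20 ± 0.571 CPM per kb. *Cavin3* (2.57 ± 0.406), *Ehd2* (2.06 ± 0.257) and *Cavin2* (1.85 ± 0.112) followed, and from *Cav2* downwards each gene overlapped its neighbour in the order. The order was the same in *Atm*-KO mice, where *Cavin1* was at 4.60 ± 0.442 and *Cavin2* at 1.25 ± 0.132 CPM per kb. Dividing by the longest transcript in place of all exons put *Cav1* (5.26) ahead of *Cav2* (4.10) and left *Cavin1* first (10.3).

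**Figure D1:**
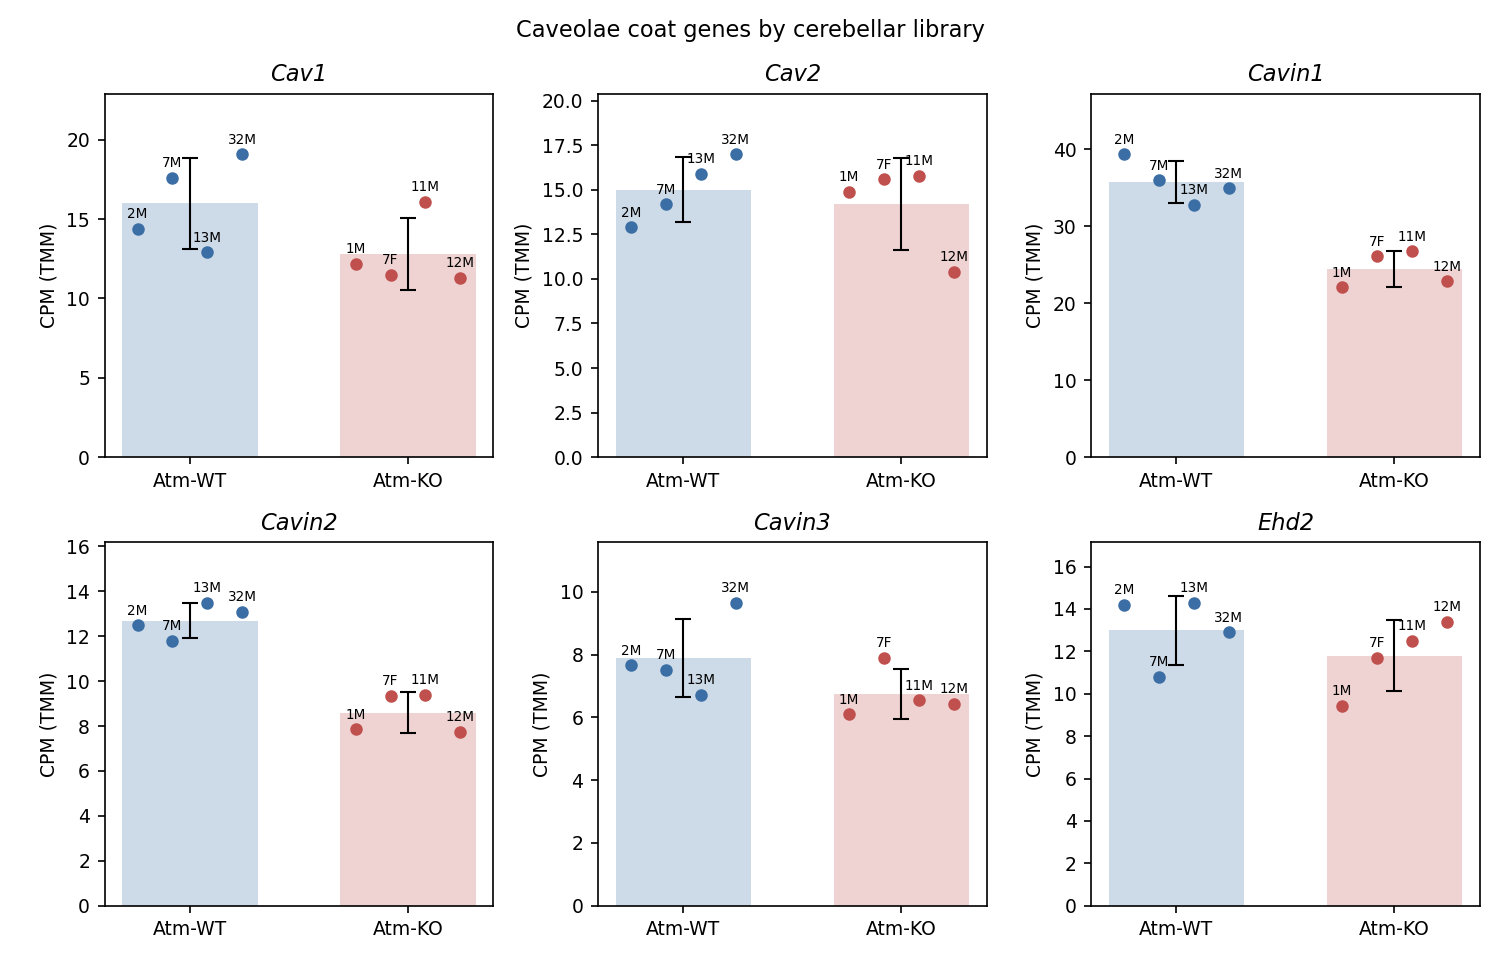
Levels of the 6 coat genes in CPM (linear axes from 0, a panel per gene), with a point for each mouse and the mean and SD of each genotype (n = 4). In *Cavin1* and *Cavin2* the *Atm*-KO points all lie below the *Atm*-WT points, and in the other 4 genes the genotypes overlap.

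Of the caveolins, *Cav1*, the protein that shapes the pit, was at 14.4, 17.6, 12.9 and 19.1 CPM in *Atm*-WT mice 2M, 7M, 13M and 32M and at 12.2, 11.5, 16.1 and 11.3 CPM in *Atm*-KO mice 1M, 7F, 11M and 12M. The *Atm*-KO mean was 20.1% lower on the fitted scale (log2 fold change −0.32, standard error 0.15), with 3 mutants below the lowest wild type and mouse 11M inside the wild-type range. Without mouse 11M the log2 fold change was −0.44 and without *Atm*-WT mouse 32M it was −0.23.

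*Cav2*, which depends on caveolin 1 to reach the cell surface, was at 12.9, 14.2, 15.9 and 17 CPM in the wild types and at 14.9, 15.6, 15.8 and 10.4 CPM in mutants 1M, 7F, 11M and 12M. Of the mutants, 3 lay inside the wild-type range and only mouse 12M below it. The log2 fold change of −0.08 (standard error 0.14) was smaller than its error and became 0.04 without mouse 12M, so the direction of *Cav2* rested on that library. Although *Cav1* and *Cav2* are neighbours on the same strand, the ratio of their CPM was not fixed among mice, at 0.955 ± 0.188 *Cav2* per *Cav1* in wild types and 1.12 ± 0.204 in mutants (SD, n = 4).

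Among the cavins, *Cavin1*, without which caveolae do not form, was at 39.4, 36.0, 32.8 and 35.0 CPM in *Atm*-WT mice and at 22.1, 26.1, 26.8 and 22.9 CPM in *Atm*-KO mice. The lowest wild type was therefore 13M and the highest mutant 11M, and no values overlapped. The fitted level was 31.7% lower (log2 fold change −0.55, standard error 0.087) and remained between −0.58 and −0.50 when any mouse was left out.

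*Cavin2*, which binds phosphatidylserine and helps the membrane to curve, was at 12.5, 11.8, 13.5 and 13.1 CPM in *Atm*-WT mice and at 7.86, 9.36, 9.39 and 7.74 CPM in *Atm*-KO mice. Again all mutants lay below all wild types, with a fitted level 32.5% lower (log2 fold change −0.57, standard error 0.11, and −0.61 to −0.52 on leaving out a mouse). Genotypes did not overlap in this direction in 2 of the 6 coat genes, beside 5.12% of all genes tested, from which nothing is read because the list was chosen on this contrast.

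*Cavin3*, a partner of cavin 1 that also binds protein kinase C delta, was at 7.67, 7.52, 6.73 and 9.66 CPM in *Atm*-WT mice and at 6.11, 7.90, 6.55 and 6.44 CPM in *Atm*-KO mice. Only mutant 7F lay inside the wild-type range. Its log2 fold change of −0.23 (standard error 0.14) was −0.29 without 7F and −0.12 without *Atm*-WT mouse 32M, which had the highest value.

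*Ehd2*, the ATPase of the caveolar neck, was at 14.2, 10.8, 14.3 and 12.9 CPM in *Atm*-WT mice and at 9.44, 11.7, 12.5 and 13.4 CPM in *Atm*-KO mice. The mutants were within the wild-type range except for mouse 1M. The log2 fold change was −0.15 (standard error 0.13), and −0.06 without mouse 1M.

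**Figure D2:**
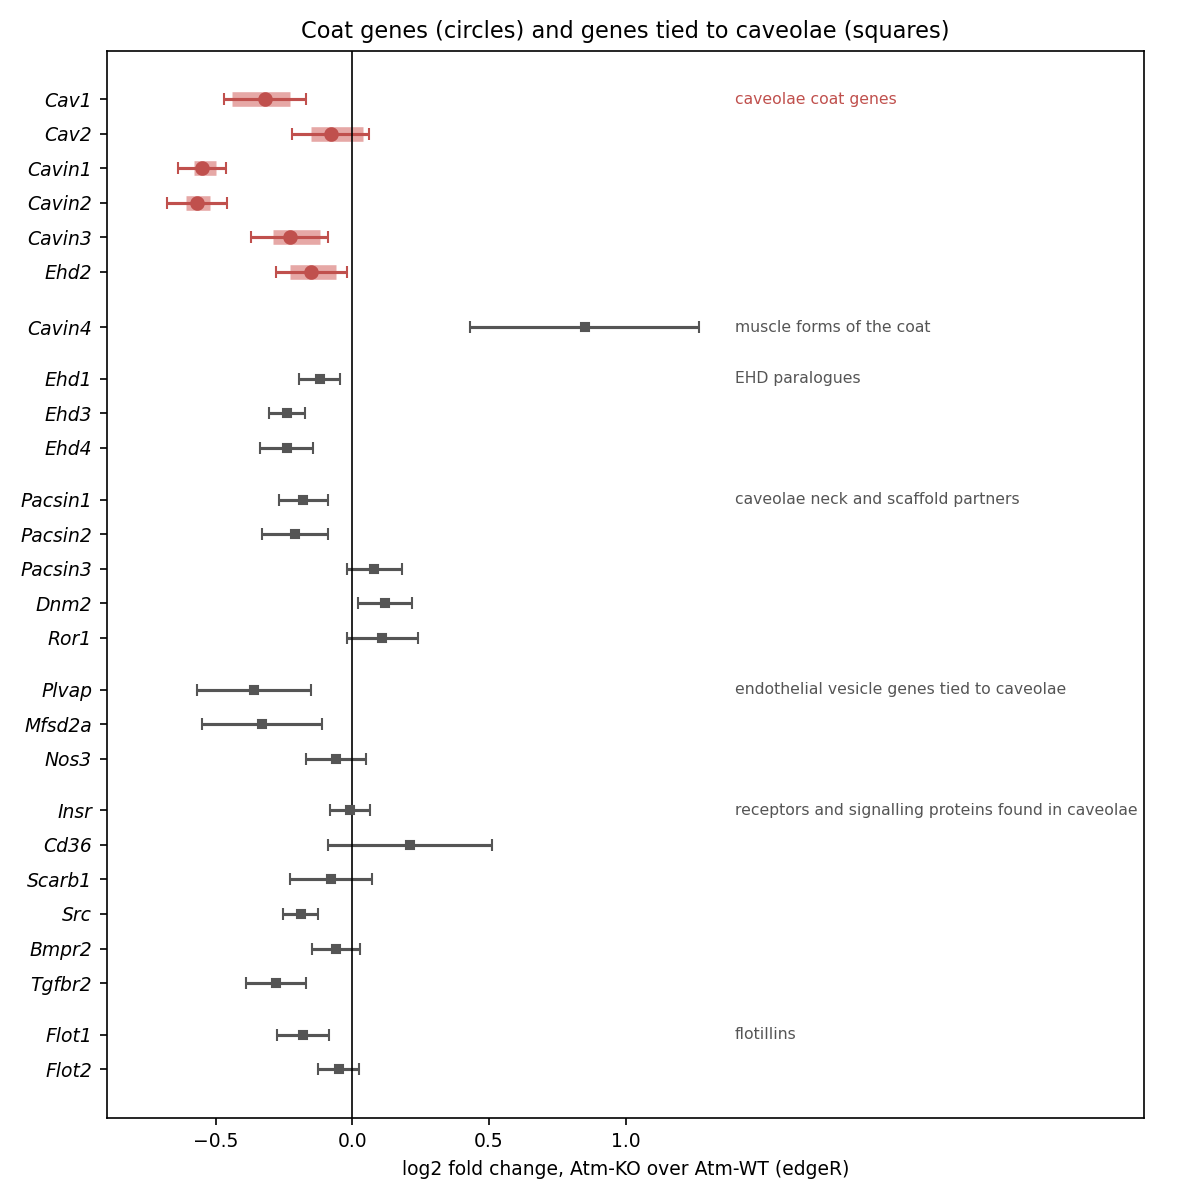
Log2 fold changes (*Atm*-KO over *Atm*-WT, edgeR) of the 6 coat genes (circles) and of 20 genes tied to caveolae (squares), with bars of 1 standard error and, for the coat genes, a pale band over the values obtained on leaving out each mouse. *Cavin1* and *Cavin2* lie furthest to the left with narrow bands, and the band of *Cav2* reaches across 0.

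The genes also differed in how steady they were among mice of a genotype. The within-genotype SD on the log2 scale was 0.125 in both *Cavin1* and *Cavin2*, below the median of 0.154 over genes of at least 1 CPM, and it was 0.249 in *Cav1*, 0.240 in *Cav2*, 0.202 in *Ehd2* and 0.192 in *Cavin3*. *Cavin1* and *Cavin2* were alike from mutant to mutant but not from wild type to wild type. Relative to the *Atm*-KO mean of each gene, *Cavin1* stood at −0.14, 0.10, 0.14 and −0.09 (log2) in mice 1M, 7F, 11M and 12M, and *Cavin2* at −0.12, 0.13, 0.13 and −0.14. Relative to the *Atm*-WT mean, *Cavin1* stood at 0.14, 0.01, −0.12 and −0.03 in mice 2M, 7M, 13M and 32M. *Cavin2* stood at −0.02, −0.11, 0.09 and 0.04 in the same wild types. Over the 8 libraries their log2 levels, each centred on its mean, differed by a root mean square of 0.111, the smallest of the 15 pairs of coat genes, whereas *Cav1* and *Ehd2* differed most, by 0.325. These values describe the same libraries that chose the list.

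The make-up of the coat transcripts can be read from ratios within a library, which do not depend on how libraries are scaled. *Cavin1* per *Cavin2* was 2.83 ± 0.343 in wild types and 2.85 ± 0.0742 in mutants (SD, n = 4), with mutant values of 2.79 to 2.96 inside the wild-type range of 2.42 to 3.16. *Cavin1* per *Cav1* was 2.29 ± 0.422 and 1.95 ± 0.263, with overlapping genotypes. *Cavin1* per *Ehd2* was 2.78 ± 0.427 in wild types and 2.11 ± 0.273 in mutants, with mutant 1M (2.34) above wild type 13M (2.29), so these overlapped as well. Summed over the 6 genes, the coat transcripts took 101, 97.9, 96.1 and 107 CPM in *Atm*-WT mice and 72.5, 82.3, 87.2 and 72.0 CPM in *Atm*-KO mice. *Cavin1* contributed 32.8% to 39.0% of this sum in wild types and 30.4% to 31.8% in mutants.

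Because caveolae belong to a few cell types of the cerebellum, marker genes were set beside the coat genes. In bulk tissue, fewer cells of a type and less RNA per cell cannot be told apart. Of 18 endothelial markers, 13 had a lower and 5 a higher level in *Atm*-KO, with a median log2 fold change of −0.22 and a summed level of 431 to 494 CPM in wild types and 347 to 448 CPM in mutants. *Pecam1*, an adhesion molecule of endothelial junctions, was at 22.5 ± 1.6 CPM in wild types and 16.9 ± 2.04 CPM in mutants (log2 fold change −0.42, adjusted p = 0.0948 by edgeR). *Cldn5*, the tight junction claudin of brain endothelium, was at 16.3 ± 4.25 and 17.7 ± 2.6 CPM (log2 fold change 0.13). No defining marker of these cells was at 0.

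Mural cells, the pericytes and smooth muscle of the vessel wall, had 12 of 13 markers lower, with a median of −0.26 and sums of 246 to 294 and 186 to 247 CPM. *Acta2*, smooth muscle actin, was at 9.69 ± 1.98 and 5.81 ± 0.585 CPM (log2 fold change −0.74, adjusted p = 0.0931 by edgeR), while the pericyte receptor *Pdgfrb* had a log2 fold change of −0.11. Meningeal fibroblast markers were lower in 7 of 10, with a median of −0.23 and sums of 131 to 172 and 109 to 145 CPM. *Dcn*, which encodes decorin, had a log2 fold change of −0.47 (adjusted p = 0.0931 by edgeR). The markers *Col1a1* (0.28), *Col3a1* (0.12) and *Slc6a13* (0.03) were higher. The meningeal median was −0.15 without *Atm*-WT mouse 7M. No endothelial, mural or meningeal marker passed an adjusted p of 0.05 by edgeR, which called 0.0178% of all genes tested, or by voom, which called 0.0134%. Unadjusted p-values by edgeR were under 0.05 for 6 of 18 endothelial, 5 of 13 mural and 2 of 10 meningeal markers, beside 20.2% of all genes tested, so the meningeal share was that of the background. DESeq2 called 4, 3 and 1 of them in turn, beside 8.23% of the genes to which it gave an adjusted p.

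Markers of other cells were read in the same way. They were lower in 9 of 9 for astrocytes and Bergmann glia (median −0.17), 8 of 8 for oligodendrocytes (−0.18), 8 of 8 for microglia (−0.36) and 7 of 7 for choroid plexus epithelium (−0.54). Granule cell markers were higher in 6 of 8 (median 0.06), Purkinje cell markers lower in 6 of 7 (−0.07) and red blood cell genes higher in 5 of 5 (0.61). Several of these medians turned on single libraries. Without *Atm*-KO mouse 12M, 7 of 8 granule cell markers were lower (median −0.03), and the Purkinje cell median ranged from −0.13 to −0.02 on leaving out each mouse. Red blood cell genes had a median of 0.11 with 2 of 5 lower without *Atm*-KO mouse 7F and of 1.41 without *Atm*-WT mouse 13M, with 0.92 without *Atm*-KO mouse 1M and 0.35 when either wild type 7M or 32M was left out. Choroid plexus markers had a median of −0.34 without *Atm*-WT mouse 2M and −0.35 without *Atm*-KO mouse 1M, which stood at −1.26 relative to the *Atm*-WT mean, while the wild types ran from −0.48 to 0.43. None of these markers passed an adjusted p of 0.05 by edgeR or voom. Beside the 20.2% of all genes, unadjusted p-values were under 0.05 for 3 of 9 astrocyte, 3 of 8 oligodendrocyte, 5 of 8 microglia, 3 of 7 choroid plexus, 0 of 8 granule cell, 1 of 7 Purkinje cell and 0 of 5 red blood cell markers. DESeq2 called 2 astrocyte and 4 microglia markers, beside the same 8.23%, and none of the others. The part of these cell types in the coat gene values was not tested.

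Without mouse 12M the median of the 6 coat genes was −0.24 with 5 of 6 lower, that of endothelial markers −0.20 and of mural markers −0.16. Oligodendrocyte markers then had a median of −0.04 with 5 of 8 lower. *Cavin1* and *Cavin2* were then both at −0.52 (log2 fold change), *Cav1* at −0.27, *Ehd2* at −0.22 and *Cavin3* at −0.20.

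**Figure D3:**
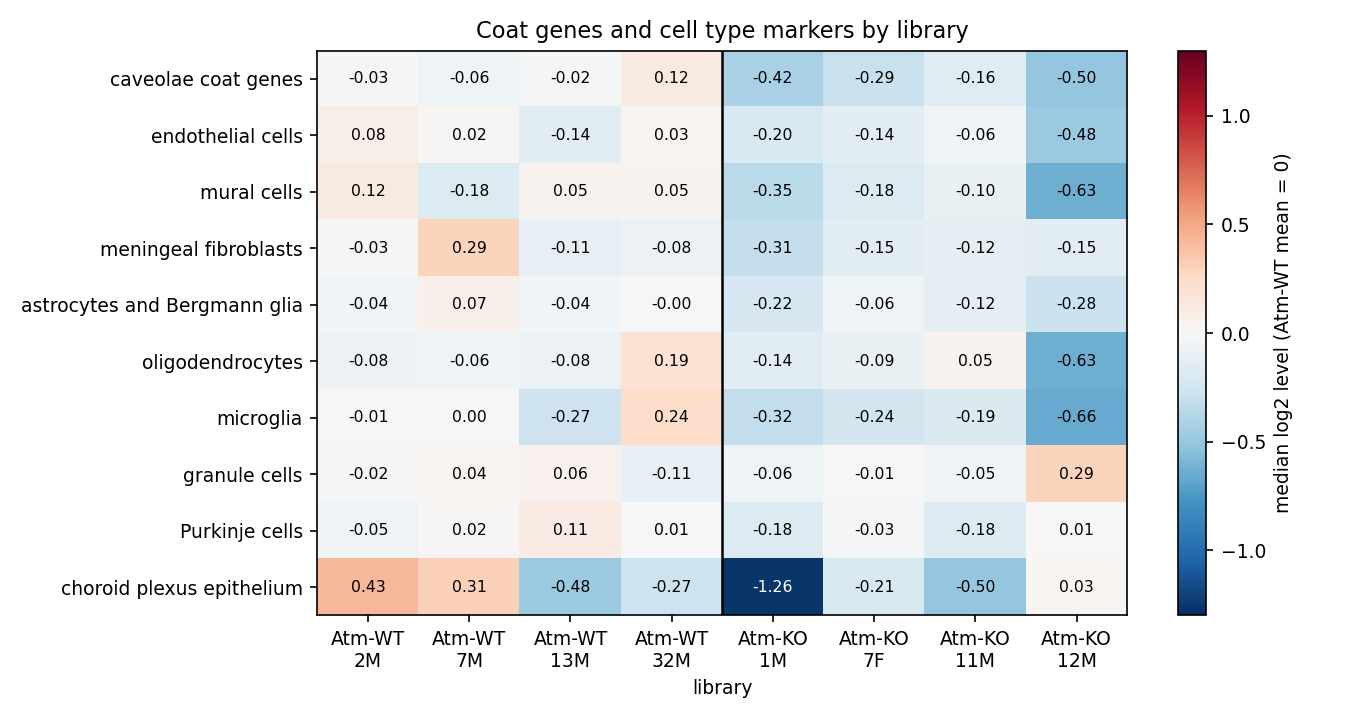
Median log2 level of the coat genes and of each cell type marker list except red blood cells, in each mouse relative to the *Atm*-WT mean. Colour runs from low to high and the value is printed in each cell. Coat genes are between −0.50 and −0.16 in the 4 *Atm*-KO mice. Microglia (−0.66 to −0.19), mural (−0.63 to −0.10) and endothelial markers (−0.48 to −0.06) are likewise low in all of these, as are meningeal and astrocyte markers. Mouse 12M is low for most cell types and high for granule cells.

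Over the whole list, the median of the coat genes was 0.05 below that of the endothelial markers (−0.27 against −0.22 on the log2 fold change scale). This difference turned on single mice, being 0.01 without *Atm*-WT mouse 32M, 0.00 without *Atm*-KO mouse 1M and −0.11 without *Atm*-WT mouse 2M. Single coat genes differed in this respect. Relative to the mean of the 18 endothelial markers in the same library, and with the *Atm*-WT mean set to 0, *Cavin1* was at 0.06, −0.00, 0.03 and −0.09 (log2) in *Atm*-WT mice 2M, 7M, 13M and 32M and at −0.48, −0.30, −0.40 and −0.25 in *Atm*-KO mice 1M, 7F, 11M and 12M. *Cavin2* was at −0.11, −0.12, 0.25 and −0.02 in wild types and at −0.47, −0.29, −0.42 and −0.32 in mutants. In neither gene did the genotypes overlap on this relative scale, on which the share over all genes was not counted. These values are a description as well, since the list was chosen with the lower *Cavin1* and *Cavin2* counts of these libraries known. The *Atm*-KO means of the others were close to 0 with wide spread, at −0.13 ± 0.14 for *Cav1*, 0.10 ± 0.16 for *Cav2*, −0.02 ± 0.20 for *Cavin3* and 0.04 ± 0.29 for *Ehd2* (SD, n = 4). No ratio to mural markers was taken, of which 12 of 13 were lower, with log2 fold changes from −0.87 to 0.01.

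**Figure D4:**
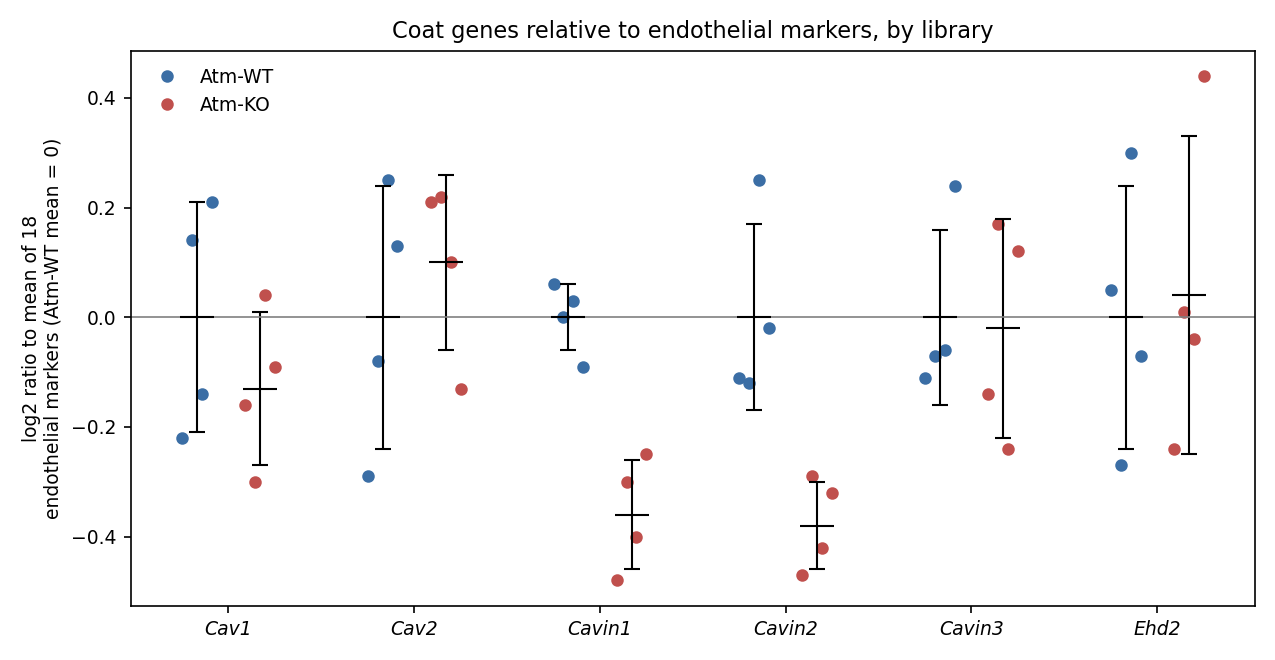
Log2 level of each coat gene relative to the mean of 18 endothelial markers in the same library, with the *Atm*-WT mean of each gene at 0 and a point for each mouse. The *Atm*-KO points of *Cavin1* (−0.48 to −0.25) and *Cavin2* (−0.47 to −0.29) lie below all their *Atm*-WT points, and those of *Cav1*, *Cav2*, *Cavin3* and *Ehd2* overlap them. The share of all genes without overlap on this scale was not counted.

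The other genes of the pathway were read from a list of 21 caveolar partners, ordered by role. Of these, 20 were tested, 15 were lower and 5 higher in *Atm*-KO mice, with a median log2 fold change of −0.10. None passed an adjusted p of 0.05 by edgeR, beside 0.0178% of all genes tested (4 of 22423), or by voom. Unadjusted p-values were under 0.05 in 4 of the 20, *Ehd3*, *Ehd4*, *Src* and *Tgfbr2*, and in 20.2% of all genes. DESeq2 called 1 of the 20, *Ehd3*, beside 8.23% of genes (1608 in all). The p-values rest on the spread between 4 mice of each genotype.

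The muscle forms of the coat were scarcely present. *Cav3*, the caveolin of muscle, had 0 to 6 counts per library and was not tested. *Cavin4*, the muscle cavin, was at 0.279 ± 0.133 CPM in wild types and 0.505 ± 0.14 CPM in mutants (log2 fold change 0.85 with a standard error of 0.42, adjusted p = 0.285 by edgeR), and its log2 fold change was 0.56 without *Atm*-WT mouse 7M.

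The EHD paralogues of *Ehd2* act mainly in endosomal recycling. *Ehd3* was at 98.3, 95.9, 96.1 and 88.1 CPM in *Atm*-WT mice and at 77.0, 85.5, 84.0 and 74.7 CPM in *Atm*-KO mice, with no overlap. Its log2 fold change was −0.24 with a standard error of 0.066 (adjusted p = 0.113 by edgeR), and the adjusted p ranged from 0.0414 by DESeq2 to 0.312 without mouse 1M. *Ehd4* was at 23.9, 19.1, 22.1 and 19.6 CPM in wild types and 18, 19.0, 18.6 and 15.9 CPM in mutants, without overlap but with a gap between 19.0 and 19.1 CPM (log2 fold change −0.24, adjusted p = 0.193 by edgeR). *Ehd1* was at 90.7 and 83.4 CPM (log2 fold change −0.12, adjusted p = 0.382 by edgeR).

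Proteins of the neck and of the scaffold showed no common direction. *Pacsin2*, the syndapin that bends caveolar membrane, had a log2 fold change of −0.21, or −0.09 without mouse 12M, which was at 25.5 CPM beside an *Atm*-KO mean of 34.4 ± 6.15 CPM. *Pacsin1*, its neuronal paralogue, was at −0.18, *Pacsin3* at 0.08, *Dnm2*, the dynamin of membrane scission, at 0.12 and *Ror1*, a receptor reported to scaffold cavin 1 and caveolin 1, at 0.11. On leaving out each mouse, *Ror1* ran from −0.01 (without *Atm*-WT mouse 32M) to 0.19 (without *Atm*-WT mouse 7M) and *Dnm2* from 0.04 to 0.19 without the same mice. *Pacsin3* ran from 0.01 (without *Atm*-KO mouse 12M) to 0.17 (without *Atm*-KO mouse 11M). Their adjusted p-values by edgeR were between 0.281 and 0.667.

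Endothelial genes tied to vesicles were all lower on average. *Plvap*, which forms the diaphragms of vesicles in leaky endothelium, was at 5.16 ± 1.54 and 4.01 ± 0.45 CPM (log2 fold change −0.36, adjusted p = 0.348 by edgeR), with a log2 fold change of −0.21 without *Atm*-WT mouse 2M. *Mfsd2a*, the lipid transporter that keeps caveolar transport low at the blood-brain barrier, was at 10.2 ± 2.13 and 8.08 ± 2.39 CPM (log2 fold change −0.33, adjusted p = 0.419 by edgeR), with mouse 12M at 4.59 CPM. Its log2 fold change was −0.14 without that mouse and −0.17 without *Atm*-WT mouse 13M. *Nos3*, endothelial nitric oxide synthase, had a log2 fold change of −0.06, which was −0.02 without mouse 12M and −0.03 without *Atm*-WT mouse 2M.

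Of receptors and kinases found in caveolae, *Src*, which phosphorylates caveolin 1, was at 74.0, 71.7, 72.5 and 81.0 CPM in *Atm*-WT mice and at 64.2, 66.9, 68.6 and 61.7 CPM in *Atm*-KO mice. The genotypes did not overlap, with a log2 fold change of −0.19 and a standard error of 0.064 (adjusted p = 0.142 by edgeR). *Tgfbr2*, a receptor of transforming growth factor beta, was at 28.0 ± 1.98 and 23.1 ± 3.53 CPM (log2 fold change −0.28, adjusted p = 0.187 by edgeR). *Insr*, the insulin receptor, was at 157 ± 14.7 and 155 ± 5.88 CPM (log2 fold change −0.01 with a standard error of 0.074, adjusted p = 0.95 by edgeR), and its log2 fold change ran from −0.07 to 0.04 on leaving out each mouse. *Scarb1* (−0.08), *Bmpr2* (−0.06) and *Cd36* (0.21) had adjusted p-values by edgeR of 0.728 to 0.818. The direction of *Cd36* turned without *Atm*-KO mouse 7F (−0.04, against up to 0.35 without mouse 12M) and that of *Scarb1* without mouse 12M (0.03, against down to −0.16 without mouse 11M), while *Bmpr2* ran from −0.11 to −0.00 on leaving out each mouse. The flotillins, scaffold proteins of other membrane domains, had log2 fold changes of −0.18 (*Flot1*, −0.09 without *Atm*-WT mouse 32M) and −0.05 (*Flot2*, from −0.11 without *Atm*-WT mouse 7M to −0.00 without 13M).

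Some coat genes share sequence with antisense genes, and whether the counting used strand is not stated, so reads of the pairs cannot be told apart. *Cavin1* shares 898 exon bases (16.9% of its exons) with the lncRNA *Gm57383* on the opposite strand, which itself had 61 to 141 counts per library, at 1.61 ± 0.0606 CPM in wild types and 1.2 ± 0.347 CPM in mutants. *Cavin2* shares 2.3% of its exons with *9330175M20Rik*, at 7 to 20 counts. *Cavin3* shares 12.2% with *Gm45667*, at 15 to 50 counts, and *Cav2* 2.1% with *Gm15581*, at 0 to 1 counts. *Cav1* and *Cavin3* also overlap *Gm68216* and *Gm36847* in turn, which had no row in the deposited counts. *Ehd2* overlaps no other gene in the annotation. The coat genes themselves had between 435 and 3002 counts per library.

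The genes whose levels over the 8 libraries were nearest to the mean profile of the 6 coat genes were *Cd81*, *Eef2*, *Dusp28*, *Tsen34*, *Ldhb*, *Ciao2b*, *Eif1b*, *Npc2*, *Smpdl3a* and *Msrb3*. Likeness was measured as the root mean square difference of centred log2 CPM among 15739 genes, with a median of 0.227. *Cd81*, which encodes a tetraspanin of the plasma membrane, was nearest at 0.0333, at 310 ± 19.5 CPM in wild types and 254 ± 22.5 CPM in mutants. Since the mean profile carries the lower mutant levels on which the coat list was chosen, genes near to it are lower in mutants by selection, and no test is given for them. The coat genes stood further from their own mean, at 0.130 for *Cavin3*, 0.142 for *Cavin2*, 0.147 for *Cavin1*, 0.170 for *Cav1*, 0.197 for *Cav2* and 0.199 for *Ehd2*. In nearness to it they ranked from 1509 (*Cavin3*) to 6094 (*Ehd2*) among the 15739 genes. None of the 10 genes belongs to the coat, the partner or the marker lists.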

How the data were processed

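Cerebellar RNA of 4 *Atm*-WT and 4 *Atm*-KO mice was sequenced through Novogene. The authors used FastQC 0.11.9 for read quality, STAR for alignment to GRCm39 and featureCounts for counting, and the deposited values are raw counts per gene. Strain, age and littermate status are from the study's methods. The strand and pair settings are not stated. Even numbers made up 67.3% to 73.3% of low counts (1 to 50), depending on the library, so a count may stand for a read or a pair. The methods give GENCODE release 28. Identifiers without version were matched to GENCODE vM39, which held 56017 of 56691 (98.8%).

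Genes were kept by filterByExpr (22423), scaled by TMM and compared with glmQLFit and glmQLFTest of edgeR 4.0.16 in R 4.3.3, two-sided, without covariates, with Benjamini-Hochberg adjustment across the tested genes, and a threshold of 0.05. Log2 levels per library used a prior count of 2. Alternatives were RLE factors, library size alone, no filter, at least 10 counts in every library, DESeq2 1.42.0, limma 3.58.1 (voom) and each mouse left out. The fits were tested on simulated data. Upstream stretches and overlaps were read from GRCm39 and GENCODE vM39.

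The coat genes and all lists were chosen with earlier results of these data known. Named genes were the 6 coat genes, all partner genes, *Atm*, genes overlapping a coat gene, the defining vascular markers, the meningeal markers that were higher in *Atm*-KO and the 10 genes nearest to the mean coat profile, at a mean of at least 1 CPM. Depth was at least 65967130 counts per library, at which each coat gene had at least 435 counts. Columns for all 8 mice were used.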

Additional observations from a re-analysis of the deposited data

Results flagged for a closer look

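Among 152 groups of 4 libraries examined, in 7 the lowest or highest library lay further from the others than Dixon's critical value allows, where chance gives about 7.6 (1 in 20). Single genes were examined in CPM and, as a choice made after seeing the data, in log2 CPM, so these groups are not independent. *Atm*-KO mouse 12M accounted for 5 of the 7. Its total was 65967130 counts, against 76598492 to 78431478 in the other mutants, and its median log2 level of granule cell markers relative to *Atm*-WT was 0.295 against −0.057 to −0.013. Its *Acta2* level was 4.94 CPM against 6.01 to 6.20 (2.31 against 2.59 to 2.64 in log2 CPM). Its *Cav2* level was 3.38 in log2 CPM against 3.90 to 3.99, a gap that did not pass in CPM. *Atm*-KO mouse 1M had a median of −0.306 for meningeal fibroblast markers, against −0.154 to −0.124 in the others. *Atm*-WT mouse 32M had a median of 0.195 for oligodendrocyte markers, against −0.084 to −0.056. No library stood apart in the other 5 coat genes on either scale.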

How the results depend on the processing

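The log2 fold changes of *Cav1*, *Cavin1*, *Cavin2*, *Cavin3* and *Ehd2* were negative under all 14 alternatives, and that of *Cav2* under all but the one without *Atm*-KO mouse 12M (0.04). The median of the coat genes ranged from −0.34 to −0.19 on leaving out each mouse, and the coat median minus the endothelial marker median from −0.11 to 0.01 over all alternatives. *Cavin1* and *Cavin2* did not overlap between genotypes with RLE factors or with library size alone. At unchanged CPM, leaving out a mouse cannot make separate genotypes overlap, so it was no check of *Cavin1* and *Cavin2* in this respect. Leaving out mouse 7F or 11M added *Cavin3* or *Cav1*. The share of all genes without overlap was not counted for these smaller groups, so nothing is read from the added genes. Over all genes, 4 passed an adjusted p of 0.05 in edgeR, 591 without the filter on low counts, 1608 with DESeq2 and 1 to 27 on leaving out each mouse (27 without *Atm*-WT mouse 13M and 10 without 32M). Of the partner genes, DESeq2 called 1. The cause of these differences was not tested. No paired analysis was possible because the genotypes share only the number 7 and the labels pair no mice. With 4 mice per genotype, and 1 marked F, small differences such as that of *Cav2* cannot be resolved.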
